A study of Mus musculus with 7 samples.

Results

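The adipogenic regulators and lipid genes described here are 9 genes that were followed across the cell classes of mouse inguinal fat and between ages. They were Pparg, Cebpa, Cebpb, Klf15, Zfp423, Plin2, Acsl1, Scd1 and Agt, taken by their symbols. Of the 10 listed genes, 9 had a row among the 27998 genes of the files, and 1 was not analysed here. Single cells of the stromal vascular fraction, the collagenase-released cells of fat other than floating adipocytes, came from inguinal subcutaneous fat of female C57BL/6N mice. The old group was 18 months of age (n = 3 libraries) and the young group was 11 to 12 weeks of age (n = 4 libraries). All libraries were made with the 10x Genomics 3' v3 chemistry, no group carried a transgene or treatment in the labels, and the series text equates the number of libraries with the number of mice. Pooling of animals within a library is not stated in the labels, so the p-values measure the spread between these libraries.

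White adipocytes arise from fibroblast-like progenitors through a cascade of transcription factors. C/EBP beta is induced early and helps to switch on PPAR gamma and C/EBP alpha, which then sustain each other's expression and activate lipid genes. Mature adipocytes float off during isolation of the stromal fraction, so the genes are measured here mainly in cells that have not filled with lipid, and several of them also act outside the fat lineage. PPAR gamma is active in endothelial cells and macrophages, C/EBP factors in myeloid cells, and perilipin 2 coats small lipid droplets in most cell types.

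Each gene is given by its position in mm10. Pparg (ENSMUSG00000000440), the nuclear receptor required for adipocyte formation, lies on chromosome 6 at 115360951-115490399, plus strand. Cebpa (ENSMUSG00000034957), the late C/EBP factor, lies on chromosome 7 at 35119293-35121928, plus strand, and Cebpb (ENSMUSG00000056501), the early one, on chromosome 2 at 167688915-167690418, plus strand. Klf15 (ENSMUSG00000030087), a glucocorticoid-inducible Krüppel-like factor that promotes adipogenesis, lies on chromosome 6 at 90462576-90475238, plus strand. Zfp423 (ENSMUSG00000045333), a zinc finger protein that marks preadipocytes and promotes Pparg expression, lies on chromosome 8 at 87661810-87959595, minus strand. Plin2 (ENSMUSG00000028494), a lipid droplet coat protein, lies on chromosome 4 at 86648386-86670060, minus strand. Acsl1 (ENSMUSG00000018796), which activates long-chain fatty acids to acyl-CoA, lies on chromosome 8 at 46471037-46536051, plus strand. Scd1 (ENSMUSG00000037071), the stearoyl-CoA desaturase that makes monounsaturated fatty acids, lies on chromosome 19 at 44394455-44407879, minus strand. Agt (ENSMUSG00000031980), which encodes angiotensinogen, the precursor of angiotensin, lies on chromosome 8 at 124556534-124569706, minus strand. Each position spans the whole gene with its exons, introns and UTRs, and the UMI counts do not say which exon was read.

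Promoter sequence from RefSeq (GRCm38.p6, the assembly of mm10) matched 8 of the 9 genes by symbol. Pparg is shown because it has 3 annotated starts that give rise to different isoforms, which 3' counting pools into 1 value. The 100 bases before each start are printed 5' to 3' on the plus strand of chromosome 6, and capitals mark matches on either strand to the CCAAT box (the letters CCAAT), the TATA box (the letters TATAAA) or the C/EBP-type motif (the letters TTGCNNAA). The windows were chr6:115361044-115361143, chr6:115362249-115362348 and chr6:115421966-115422065 in order.
Pparg start 1: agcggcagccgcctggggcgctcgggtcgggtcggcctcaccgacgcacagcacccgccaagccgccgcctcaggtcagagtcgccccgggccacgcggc
Pparg start 2: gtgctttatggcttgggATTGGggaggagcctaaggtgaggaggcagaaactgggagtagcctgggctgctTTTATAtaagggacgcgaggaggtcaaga
Pparg start 3: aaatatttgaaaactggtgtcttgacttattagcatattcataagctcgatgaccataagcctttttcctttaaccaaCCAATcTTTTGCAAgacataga
Start 1 was rich in G and C (79%) and held no match. Start 2 (54% GC) held a CCAAT box on the minus strand and a TATA box on the minus strand, and start 3 (33% GC) held a CCAAT box beside a C/EBP-type motif. In windows of 250 bases before the start, TTGCNNAA was present at 1 of 3 Pparg starts and 1 of 2 Zfp423 starts, and in 9.56% of 32851 RefSeq mouse promoters. CCAAT was present in 33.8% and TATAAA in 12.4% of those promoters. A match describes letters in a window and not a bound site.

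The libraries held 45514 barcodes, of which 37372 cells were kept, and 52336665 to 99516882 UMIs each. Kept cells had median UMI counts of 5986 to 7955 in the old libraries and 9240 to 13785 in the young libraries, so old cells were read less deeply. Cell classes were rebuilt by clustering without the 9 genes and named from marker genes, so each name stands for cells like that type. In 13 of the 14 classes tested all markers reached 20 CPM, and in the epithelial class 5 of 7 did. Unnamed clusters held 11.9% of cells, and no cluster was named monocyte, lymphatic endothelial or innate lymphoid. Any pair of libraries shared 2 to 17 barcodes. Young replicate 1 stood apart in immediate early genes, which tissue dissociation induces: their summed level in progenitors was 27092, 22607 and 36107 CPM in old libraries, against 7102, 19943, 23390 and 23051 CPM in young libraries.

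The 9 genes were spread differently over the classes. Values below are in CPM, the UMIs of the gene scaled to a library and class total of 1e6 UMIs, in the order of the replicate numbers, and the level of one gene cannot be set against another's because 3' counts are not comparable between genes. Adipose progenitors were 32.0% of cells and gave 41.4% of UMIs. They gave 80.8% of all Klf15 UMIs, 63.1% of Zfp423 UMIs and 52.3% of Cebpb UMIs, but 23.3% of Pparg UMIs and 16.8% of Agt UMIs. Endothelial cells, 12.3% of cells with 9.03% of UMIs, gave 43.0% of Pparg UMIs. These are descriptions, since the classes come from the same cells. The orders of classes that follow cover the 14 named classes tested by age. They leave out the small mature adipocyte, erythroid, neutrophil, Schwann and plasma classes, and the 12 numbered clusters and sub-clusters that were also tested.

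Among the 14 classes tested by age, Pparg was highest in endothelial cells, with a median of 213 CPM over the 7 libraries and a range of 161 to 316 CPM. Mural cells, the pericytes and smooth muscle cells of vessel walls, followed with a median of 118 CPM and a range of 48.6 to 190.0 CPM, which overlapped the endothelial range. Both stood above progenitors as a whole, at a median of 26.3 CPM. Among the named progenitor subtypes the order was committed preadipocytes (47.0 CPM), matrix-producing progenitors (27.3 CPM), regulatory progenitors (11.3 CPM) and interstitial progenitors (7.52 CPM). Sub-clusters without a subtype name held 5796 of the 11941 progenitors, and in unnamed sub-cluster 3 the median was 48.9 CPM. The range of the committed cells, 28.3 to 70.3 CPM, did not overlap the interstitial range of 6.07 to 11.6 CPM. Macrophages had a median of 13.0 CPM. T cells had a median of 5.49 CPM. After thinning to 2000 UMIs per cell, 39.9 to 44.4% of endothelial cells had a Pparg UMI in old libraries, against 24.8 to 34.2% in young libraries, and in B cells the share was 0.114 to 1.51% in old libraries, against 0.488 to 0.527% in young libraries. Thinning kept 1945 of the 2277 old and 1970 of the 2320 young endothelial cells, and without it the endothelial shares were 68.0 to 74.9% in old libraries, against 46.9 to 70.8% in young libraries.

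Cebpa had its highest median of these classes in macrophages (103 CPM, range 86.6 to 164), followed by committed preadipocytes (51.0 CPM, range 31.0 to 122). Outside these classes, the median was 178 CPM in unnamed cluster 27, 86.9 CPM in unnamed cluster 8 and 52.9 CPM in progenitor sub-cluster 2. Interstitial progenitors were lowest among the named progenitor subtypes at 16.9 CPM, with a range of 8.76 to 25.4 CPM below that of committed cells. Lymphocytes had almost none, with medians of 3.97 CPM in T cells, 1.68 CPM in NK cells and 0.872 CPM in B cells. Cebpb was present in every class, from a median of 122 CPM in dendritic cells to 1167 CPM in mural cells. The neutrophil class, which had enough cells only in the old libraries, held 4265, 4885 and 7331 CPM of Cebpb. Its ranges overlapped between most neighbouring classes, as in progenitors (284.5 to 1272 CPM) and macrophages (458 to 1595 CPM).

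Klf15 was confined neither to 1 subtype nor to the fat lineage, but most classes outside the mesenchyme had nearly none. Its median was 7.62 CPM in progenitors and 11.3 CPM in mural cells, against 1.00 CPM in endothelial cells and 0 in dendritic, mast, T, NK and B cells. Over 20 Schwann cells were present only in young libraries, where Klf15 was 47.4, 18.9 and 28.9 CPM in replicates 1, 3 and 4. Zfp423 was highest in interstitial progenitors, at a median of 20.6 CPM with a range of 11.6 to 32.6 CPM. It followed in endothelial cells (13.6 CPM) and mural cells (10.5 CPM), and its median was at or below 0.764 CPM in macrophages, dendritic, mast, T, NK and B cells. The committed preadipocytes had a median of 8.11 CPM, with a range of 1.81 to 16.5 CPM that overlapped the interstitial range. By their medians, Zfp423 and Pparg ran in opposite order between the interstitial and committed subtypes.

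Plin2 was broad, with the highest median of these classes in macrophages (552 CPM, range 263 to 788) and then in committed preadipocytes (381 CPM, range 106 to 496) and endothelial cells (349 CPM, range 203 to 669). These ranges overlapped. Regulatory progenitors (56.7 CPM) and interstitial progenitors (80.8 CPM) were the lowest mesenchymal groups. Acsl1 was at a median of 29.9 CPM in endothelial cells and 5.79 CPM in progenitors, with no overlap of their ranges (26.0 to 41.2 and 4.13 to 6.78 CPM). Among the same classes Scd1 had its highest median in B cells (436 CPM, range 313 to 609), well apart from T cells (4.79 CPM, range 2.66 to 19.9). Between the interstitial and committed subtypes Scd1 ran opposite to Pparg, with 86.4 CPM in interstitial cells and 26.9 CPM in committed cells.

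Most Agt UMIs came from a few groups of cells. Unnamed cluster 12 held 31.2% of them, epithelial cells held 24.6% and mural cells held 24.0%, where epithelial cells were 3.42% and mural cells 2.51% of cells. Epithelial cells held more UMIs each, with library medians of 11274 to 48696 UMIs per cell, against 3252 to 14136 in mural cells. The level was highest in mural cells, with 50.6, 21.7 and 58.0 CPM in old libraries, against 54.5, 39.6, 31.7 and 31.7 CPM in young libraries. Regulatory progenitors, named from F3, Clec11a, Fmo2, Gdf10 and Vit, had a median of 8.31 CPM, while interstitial progenitors had 0.178 CPM and committed preadipocytes had a median of 0. The regulatory values rest on few cells. Without thinning, 1.82, 1.69 and 3.23% of them had an Agt UMI in old libraries, against 8.99, 3.39, 2.41 and 2.52% in young libraries. Their UMIs numbered 4, 5 and 13 in old libraries, against 35, 13, 11 and 8 in young libraries. Unnamed progenitor sub-cluster 11 had a median of 7.72 CPM over 6 libraries. Its highest value, 78.6 CPM in old replicate 2, rests on 40 UMIs in 29 cells. Epithelial cells had a median of 7.90 CPM.

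A small cluster of 150 cells with the markers of mature adipocytes had a median of 749.5 UMIs per cell, against 8769.5 over all kept cells, and 3 libraries held at least 20 such cells. In them Scd1 was 2765 and 5133 CPM in old replicates 1 and 2, against 5103 CPM in young replicate 2. Acsl1 was 146 and 639 CPM in those old libraries, against 579 CPM in the young one, and Cebpa was 87.3 and 515 CPM, against 214 CPM. The values of old replicate 1 rest on 5 Acsl1 UMIs and 3 Cebpa UMIs in 24 cells. These levels of Scd1 and Acsl1 exceeded those of every other named class, and with 1 young library no age test could be made.

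**Figure D1:**
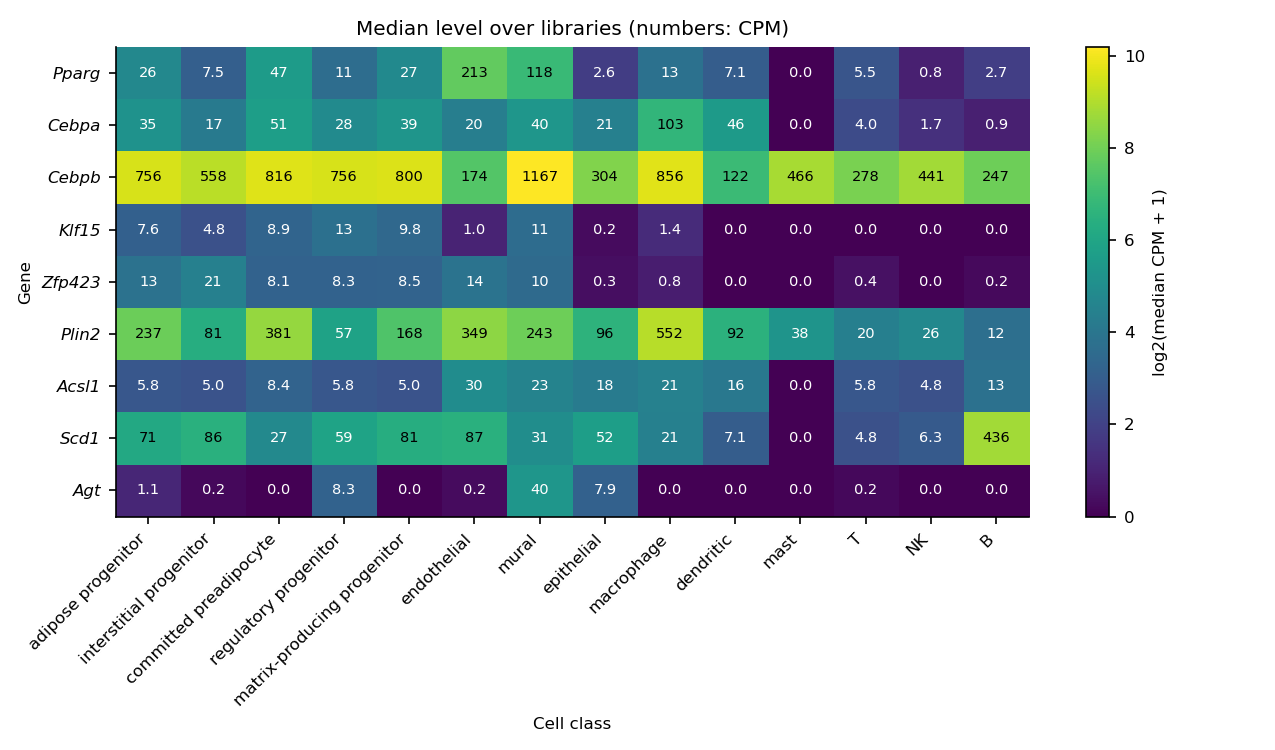
Median level of each gene over libraries in the 14 tested classes, with the median CPM printed in each cell and the colour giving log2(CPM + 1). Pparg peaks in endothelial cells (213 CPM), Scd1 in B cells (436 CPM) and Agt in mural cells (39.6 CPM).

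For several genes the best likeness over the 14 classes came from genes of no named adipogenic role. Likeness was the Pearson correlation of mean log2(CPM + 1) over the 14 classes among 9891 genes, in which 4 subtypes are contained in the progenitor class. Pparg was most like Cldn15 (r = 0.95), Ypel2 (0.94) and Hoxa5 (0.92). Cebpa was most like Phf10 (0.96), Aph1b (0.95) and Plbd2 (0.94), and Cebpb like Pex5 (0.88), Etv1 (0.87) and Selenbp1 (0.85). Klf15 was most like Cygb (0.98), Shox2 (0.98) and Hspa12a (0.97), and Zfp423 like Fhl1 (0.99), Pdgfd (0.98) and Ptrf (0.98). Plin2 was most like Ubtd1 (0.95), Tmcc2 (0.92) and Gna12 (0.91). Acsl1 was most like Rgl2 (0.93), Smagp (0.93) and Piezo1 (0.91), Scd1 like Kctd3 (0.95), Pik3r4 (0.90) and Prkce (0.89), and Agt like Hspb2 (0.91), Rbm24 (0.90) and Cpe (0.90).

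The question of the series is how old and young fat differ, and for these genes it was asked first in adipose progenitors as a whole. None of the 9 genes passed edgeR's quasi-likelihood test with Benjamini-Hochberg adjustment over 13970 genes, of which 260 (1.86%) passed. At an unadjusted p under 0.05 there were 2, Klf15 and Scd1, both lower in old libraries, and DESeq2 called 1, Scd1 (adjusted p = 0.0236). Fold changes were positive for 6 of the 9 genes and negative for 3, with a median log2 fold change of 0.25, against 0.00 over all genes tested. In 1 gene (Zfp423) every old library lay above every young one, and in 1 (Scd1) every old library lay below, where 7.27% and 9.14% of all genes tested did so.

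Pparg in progenitors was 29.6, 26.3 and 47.6 CPM in old libraries, against 14.7, 26.1, 25.3 and 27.9 CPM in young libraries. Its log2 fold change, 0.56 with an SE of 0.33, did not pass (edgeR adjusted p = 0.428), and the groups overlapped. Cebpa was 33.7, 35.3 and 89.9 CPM in old libraries, against 21.2, 31.7, 41.9 and 38.7 CPM in young libraries. Old replicate 3 was far above all others, and the log2 fold change of 0.70 (edgeR adjusted p = 0.446) became -0.03 without it. That library also had the highest summed level of immediate early genes, and their part in the result was not tested. Cebpb, itself induced by many stresses, was 593, 411 and 1272 CPM in old libraries, against 284.5, 938, 756 and 1209 CPM in young libraries. Its spread within each age was wide, and the log2 fold change was -0.04 (95% interval -1.29 to 1.21, edgeR adjusted p = 0.982). The lowest Cebpb value was in young replicate 1, the library with the lowest immediate early genes, and the highest in old replicate 3, with the highest. The order between these extremes differed. Old replicate 1, at 593 CPM of Cebpb, had a higher summed immediate early level than any young library. Its Cebpb still lay below the young values of 938, 756 and 1209 CPM. A link between Cebpb and the immediate early genes was not tested.

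Klf15 was 2.96, 5.05 and 7.62 CPM in old progenitors, against 18.4, 7.47, 9.81 and 12.2 CPM in young progenitors. Old replicate 3 lay just above young replicate 2, and no other pair overlapped. The log2 fold change was -1.16 (95% interval -2.03 to -0.30), with an unadjusted p of 0.0142 and an edgeR adjusted p of 0.167. Zfp423 was 13.6, 13.8 and 14.2 CPM in old libraries, against 10.9, 13.3, 11.0 and 8.61 CPM in young libraries. The groups did not overlap, but the gap was narrow (log2 fold change 0.34, edgeR adjusted p = 0.401).

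Plin2 was 269, 237 and 267 CPM in old progenitors, against 120, 84.6, 183 and 332 CPM in young progenitors. Young replicate 4 exceeded all the old libraries, and the log2 fold change of 0.52 did not pass (edgeR adjusted p = 0.597). Scd1 was 53.6, 62.1 and 35.5 CPM in old libraries, against 90.0, 110.4, 71.0 and 71.1 CPM in young libraries. All old libraries were below all young ones, with a log2 fold change of -0.77 (95% interval -1.26 to -0.29), an unadjusted p of 0.00569 and an edgeR adjusted p of 0.116. Acsl1 was low, at 6.32, 5.79 and 4.93 CPM in old libraries, against 4.72, 4.13, 6.41 and 6.78 CPM in young libraries. Agt was close to absent, at 0.811, 2.76 and 1.61 CPM in old libraries, against 4.12, 0.508, 1.12 and 0.610 CPM in young libraries. In old replicate 2, 40 of the 52 Agt UMIs came from the 29 cells of sub-cluster 11. Neither passed, with log2 fold changes of 0.04 for Acsl1 (edgeR adjusted p = 0.958) and 0.25 for Agt (edgeR adjusted p = 0.903). The progenitor class held different clusters at each age, so its values are taken over different mixes of cells. Cluster 0 held 86, 78 and 42 cells of old libraries, against 170, 1277, 460 and 1060 cells of young libraries, and cluster 1, the largest in old libraries, held 1015, 667 and 626 old cells, against 268, 196, 126 and 300 young cells. Within cluster 1 Scd1 was 31.8, 38.7 and 26.5 CPM in old libraries, against 74.6, 77.0, 59.1 and 49.2 CPM in young libraries, without overlap, while within cluster 0 it was 106, 121 and 61.9 CPM in old libraries, against 99.7, 107, 77.5 and 74.7 CPM in young libraries, with overlap. Klf15 was lower in the old libraries without overlap in both, at 3.69, 6.56 and 7.65 CPM in old libraries, against 23.8, 8.11, 10.4 and 12.5 CPM in young libraries in cluster 1, and at 0.599, 2.56 and 0 CPM in old libraries, against 20.5, 7.78, 8.83 and 10.7 CPM in young libraries in cluster 0. The 8 markers of mature adipocytes summed to 16.4 to 30.0 CPM in old progenitors, against 12.8 to 27.0 CPM in young progenitors.

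**Figure D2:**
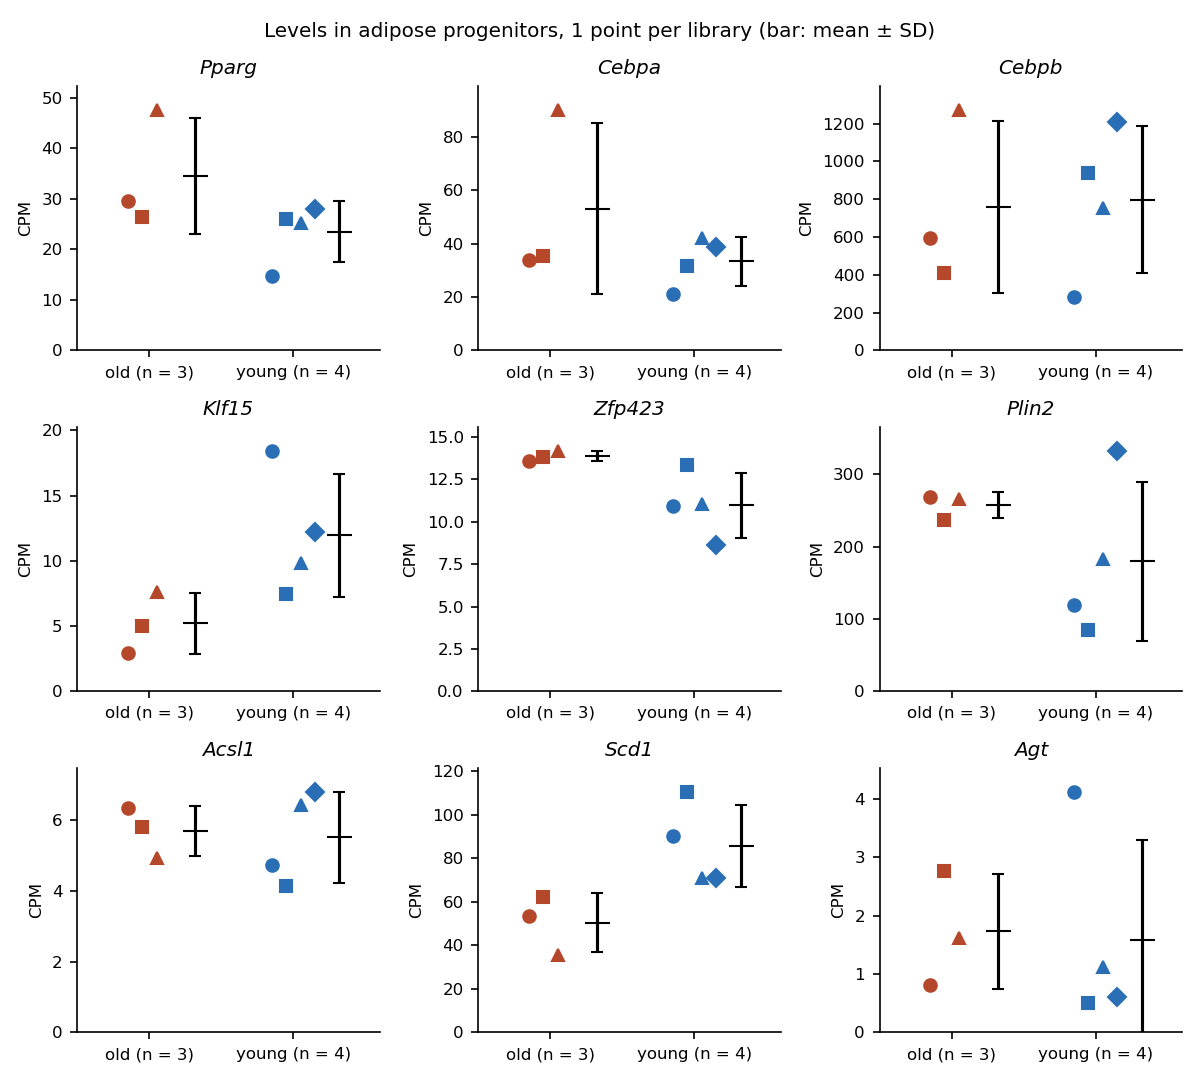
Level of each gene in adipose progenitors in CPM, with 1 point per library (old at left, young at right) and the mean ± SD beside the points. The old and young libraries separate without overlap for Zfp423 and Scd1, and old replicate 3 stands above the others for Cebpa (89.9 CPM).

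Progenitor subtypes were then compared one by one. Their fits use the same libraries as the progenitor fit, and the subtypes lie within it. No gene passed in any of the 4 subtypes, where 1.03% (interstitial), 1.73% (committed), 0.505% (regulatory) and 0.742% (matrix-producing) of genes tested passed. Numbers of committed preadipocytes differed strongly between libraries, at 558, 391 and 323 cells in old libraries, against 23, 79, 14 and 63 cells in young libraries, and young replicate 3 was left out there for having fewer than 20 cells.

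Klf15 was lower in old libraries in 9 of the 9 groups of cells in which it could be tested, all of them progenitors or their subdivisions, and in 5 of them old lay below young without overlap, beside 8.32% of all gene tests in those groups. In interstitial progenitors it was 0.892, 3.14 and 1.30 CPM in old libraries, against 7.67, 4.83, 11.9 and 10.8 CPM in young libraries (5.65% of genes tested lay below in this way; log2 fold change -2.21, edgeR adjusted p = 0.0742). In matrix-producing progenitors, which carry Postn, Cthrc1 and Lrrc15, it was 2.32, 0 and 0 CPM in old libraries, against 25.8, 11.9, 9.80 and 12.0 CPM in young libraries. Over the groups that was 2 UMIs among 2118958 in 134 old cells, against 271 among 21915610 in 921 young cells, a ratio of 0.0763 with an exact counting interval of 0.00920 to 0.278 (95%, counting error only). The edgeR adjusted p was 0.0526. Of the genes tested, 7.98% lay below in this way, and Klf15 passed without young replicate 1 (0.0323), the library with the highest value. Without other single libraries its edgeR adjusted p in matrix-producing cells reached 0.224. Both subtypes passed in DESeq2 (adjusted p = 0.00182 in interstitial and 0.0104 in matrix-producing cells).

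The interstitial class was made largely of different clusters in old and young libraries. Sub-cluster 8 held most old cells (316, 290 and 118) and fewer than 20 cells of any young library, while sub-cluster 0 held most young cells (243, 612, 184 and 489) and enough old cells only in replicate 2 (28 cells). Sub-cluster 9 held cells of both ages, 30, 29 and 21 in old libraries, against 99, 158, 63 and 158 in young libraries. Its cells had low UMI counts, at a median of 0.167 of the progenitor median of their library. Klf15 was 0.939, 2.44 and 1.36 CPM in the old cells of sub-cluster 8. In sub-cluster 0 it was 10.4 CPM (4 UMIs) in old replicate 2, against 7.87, 4.84, 12.6 and 11.1 CPM in young libraries. In committed cells Klf15 was 3.34, 6.26 and 11.5 CPM in old libraries, against 53.5, 3.45 and 11.8 CPM in young replicates 1, 2 and 4, where the highest value rests on 17 UMIs in 23 cells. In regulatory progenitors it was 4.27, 12.5 and 8.66 CPM in old libraries, against 21.8, 8.31, 13.6 and 15.8 CPM in young libraries.

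Zfp423 was 27.1, 25.1 and 32.6 CPM in old interstitial progenitors, against 11.6, 20.6, 15.7 and 19.8 CPM in young ones. Every old library was above every young library, as in 5.29% of genes tested, yet the log2 fold change of 0.70 did not pass (edgeR adjusted p = 0.277). In the other 3 subtypes the ages overlapped. Pparg did not separate by age in any named subtype, with log2 fold changes of -0.25 to 0.52. In unnamed sub-cluster 5 it was 30.5 to 39.1 CPM in 3 old libraries, against 15.8 to 17.3 CPM in 2 young libraries. The ages did not overlap there (log2 fold change 1.04, edgeR adjusted p = 0.195). Over the 20 groups in which Pparg was tested, old lay above young without overlap in 4, beside 6.66% of all gene tests.

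Cebpa and Scd1 passed a test of whether the age difference depended on the subtype. In committed preadipocytes Cebpa was 54.8, 55.8 and 122 CPM in old libraries, against 47.2, 31.0 and 31.7 CPM in young libraries, without overlap (old above young in 10.6% of genes tested; log2 fold change 1.13, edgeR adjusted p = 0.204). In interstitial progenitors it was 10.7, 14.2 and 25.4 CPM in old libraries, against 8.76, 16.9, 17.7 and 18.8 CPM in young libraries, with a log2 fold change of -0.00 (edgeR adjusted p = 0.999). The difference between the committed and the interstitial log2 fold change was 1.06 (95% interval 0.47 to 1.65) and passed edgeR's quasi-likelihood test of the class by age term over the 6 libraries with both subtypes (adjusted p = 0.0444). Of 11793 genes, 3.66% passed that test.

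Scd1 in committed preadipocytes was 23.2, 28.7 and 22.3 CPM in old libraries, against 25.2, 68.3 and 49.9 CPM in young libraries (log2 fold change -1.13, edgeR adjusted p = 0.112). In interstitial progenitors it was 86.4, 86.6 and 84.8 CPM in old libraries, against 105, 131, 75.8 and 75.2 CPM in young libraries. The old values lay inside the young range. The difference of log2 fold changes, committed minus interstitial, was -0.90 (95% interval -1.39 to -0.41, edgeR adjusted p = 0.0403). Neither difference held when single libraries were left out. The adjusted p of Cebpa ranged from 0.00606 to 0.188 and was lost without old replicate 1 or 3 or young replicate 2 or 4, and that of Scd1 ranged from 0.00623 to 0.236 and was lost without old replicate 1, 2 or 3 or young replicate 2 or 4. The interstitial values at each age come largely from the different sub-clusters given above.

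Regulatory progenitors had Scd1 at 39.3, 56.5 and 24.2 CPM in old libraries, against 81.1, 87.6, 65.1 and 59.3 CPM in young libraries. The ages did not overlap, and the log2 fold change was -0.93 (edgeR adjusted p = 0.157). Plin2 in the same cells was 76.0, 109.8 and 98.7 CPM in old libraries, against 48.4, 40.3, 50.4 and 56.7 CPM in young libraries, again without overlap (log2 fold change 0.90, edgeR adjusted p = 0.121). In this subtype 1 of the 8 genes tested lay above and 1 below without overlap, as did 4.92% and 5.43% of all genes tested.

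**Figure D3:**
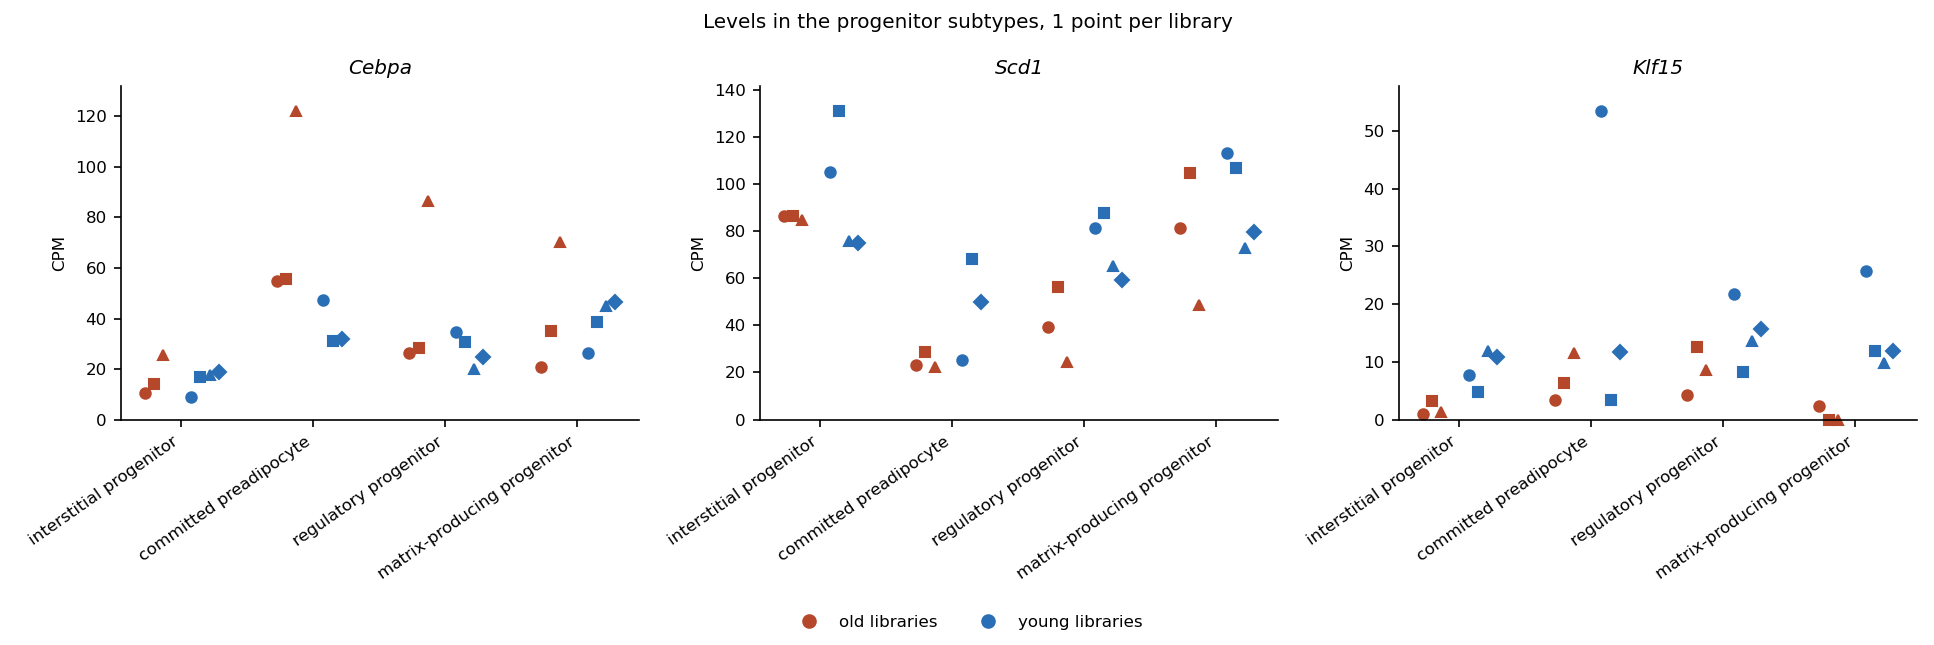
Level of Cebpa, Scd1 and Klf15 in CPM in the 4 progenitor subtypes, 1 point per library, with old libraries at left of each pair. Klf15 in matrix-producing cells is at 2.32, 0 and 0 CPM in old libraries and at 9.80 CPM or above in each young library.

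Outside the progenitors, endothelial cells carried the most Pparg. It was 268, 273 and 316 CPM in old endothelial cells, against 161, 208, 207 and 213 CPM in young ones, and every old library was above every young library, as were 3.44% of genes tested. The log2 fold change was 0.55 (95% interval 0.10 to 0.99) and did not pass (edgeR adjusted p = 0.377), in a comparison where 0.137% of genes passed. Several clusters made up the class. In the largest, cluster 4, Pparg was 277, 282 and 322 CPM in old libraries, against 195, 226, 230.2 and 255 CPM in young libraries, while most cells of young replicate 1 were in cluster 13, where its level was 215 CPM. Cluster 22, held mainly by young replicate 1, had 77.4 CPM in old replicate 2, against 56.0, 73.9 and 45.0 CPM in young replicates 1, 2 and 4. Plin2 in endothelial cells was 669, 521 and 369 CPM in old libraries, against 227, 203, 349 and 345 CPM in young libraries, without overlap (log2 fold change 0.89, edgeR adjusted p = 0.278). Endothelial Klf15 was near the floor, at 0.824, 3.33 and 3.77 CPM in old libraries, against 0.884, 1.00, 0.809 and 1.48 CPM in young libraries.

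The age differences in progenitors were set against those in endothelial cells and in macrophages, for the genes that passed the expression filter in both classes of a pair. None of the 7 such genes passed the class by age test against endothelial cells, where 1.09% of 13886 genes passed, and none of the 6 against macrophages, where 1.17% of 13772 genes passed. At an unadjusted p under 0.05 there were 2 in each test (Cebpa and Zfp423 against endothelial cells, Cebpa and Scd1 against macrophages), beside 14.6% and 13.9% of all genes, and DESeq2 was not run on the class by age term. Klf15 had too few UMIs to pass the filter in endothelial cells or in macrophages. Its class by age terms, though fitted, are therefore left out here.

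Plin2 was higher in old libraries in 24 of the 26 groups of cells tested, which overlap and share libraries, and old lay above young without overlap in 5, beside 6.55% of all gene tests in those groups. In mural cells it was 436, 470.2 and 345 CPM in old libraries, against 148, 243, 97.2 and 141 CPM in young libraries. All old libraries were above all young ones (3.06% of genes tested were), with a log2 fold change of 1.47 (95% interval 0.83 to 2.10) and an unadjusted p of 0.000348. The edgeR adjusted p was 0.164, in a comparison in which 0.0282% of genes passed, and it passed in DESeq2 (0.00282) and in edgeR without young replicate 2 (0.0381). Leaving out other single libraries gave edgeR adjusted p values of up to 0.735 for mural Plin2. In T cells Plin2 was 40.4, 70.3 and 26.7 CPM in old libraries, against 15.9, 20.1, 15.4 and 17.3 CPM in young libraries, without overlap, as in 6.63% of genes tested (log2 fold change 1.21, edgeR adjusted p = 0.114, 0.36% of genes passing), and it passed without old replicate 3 (0.0250). Without other single libraries its edgeR adjusted p in T cells reached 0.445. Macrophages, the highest of the 14 classes in Plin2, had 788, 700.4 and 552 CPM in old libraries, against 306, 263, 496 and 670.2 CPM in young libraries, with overlap.

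In cluster 8, an unnamed myeloid cluster led by Lyz2, Retnla, Ccr2 and Spp1, Plin2 reached 1301, 1574 and 801 CPM in old libraries, against 1111, 329.5, 415 and 479 CPM in young libraries. Young replicate 1 lay among the old libraries, and the log2 fold change of 1.12 (edgeR adjusted p = 0.398, 0.0755% of genes passing) passed without it (0.0241). Leaving out other single libraries gave edgeR adjusted p values of up to 0.9999.

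The epithelial class was the one in which genes of the set passed. Plin2 was 540, 96.1 and 460 CPM in old libraries, against 110, 44.4, 73.7 and 46.6 CPM in young libraries, and it rose by 2.55 on the log2 scale with an SE of 0.55 (edgeR adjusted p = 0.0289), although old replicate 2 lay below young replicate 1. Acsl1 was 43.6, 19.5 and 38.2 CPM in old libraries, against 17.7, 6.64, 14.1 and 5.13 CPM in young libraries, and it rose by 1.76 ± 0.43 (SE) on the log2 scale, without overlap, as in 8.07% of genes tested (edgeR adjusted p = 0.0431). In the same comparison 7.17% of all genes passed, the highest share of any class. Both calls were lost without old replicate 1 or 3 or young replicate 2, 3 or 4 (adjusted p up to 0.135 for Plin2 and 0.185 for Acsl1).

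The epithelial cells of the 2 ages also lay in different clusters. Cluster 23, led by the secretory genes Ltf, Csn3 and Lcn2, held 123, 41 and 94 cells of old libraries, against 128, 9, 13 and 17 cells of young libraries. Cluster 17, led by Prlr and Krt18, held 15, 16 and 4 old cells, against 360, 72, 57 and 207 young cells. Within cluster 23 Plin2 was 604, 153 and 474 CPM in old libraries, against 233 CPM in young replicate 1, and Acsl1 was 47.6, 31.8 and 39.6 CPM, against 50.5 CPM in that library. In cluster 17 Acsl1 was 14.0, 5.15, 9.06 and 4.63 CPM in young libraries. How far the 2 calls reflect the mix of clusters was not tested.

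Scd1 in B cells was 370, 410 and 436 CPM in old libraries, against 313, 511, 597 and 609 CPM in young libraries, and did not differ beyond the spread (log2 fold change -0.34, edgeR adjusted p = 0.866). Cebpb in B cells was 303, 289 and 766 CPM in old libraries, against 33.8, 219, 221 and 247 CPM in young libraries. These did not overlap, with old above young in 4.67% of genes tested, and the log2 fold change of 1.36 did not pass (edgeR adjusted p = 0.334, with 0.902% of genes passing). Acsl1 in B cells was 24.5, 25.3 and 13.4 CPM in old libraries, against 3.07, 9.33, 13.1 and 10.9 CPM in young libraries, where the young values rest on 1 to 14 UMIs (log2 fold change 0.98, edgeR adjusted p = 0.50). Mural Pparg was 118, 152 and 190.0 CPM in old libraries, against 89.0, 153, 48.6 and 90.3 CPM in young libraries, with overlap.

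Cluster 12 stayed unnamed because it was led by both the pericyte gene Rgs5 and the endothelial genes Flt1 and Cdh5, and 16.7% of its barcodes were predicted doublets before these were removed. Pparg there was 254, 232 and 204 CPM in old libraries, against 164, 168, 150.1 and 172 CPM in young libraries (log2 fold change 0.56, edgeR adjusted p = 0.206). Agt was 9.02, 6.03 and 11.8 CPM in old libraries, against 15.4, 17.6, 38.7 and 24.9 CPM in young libraries (log2 fold change -1.46, edgeR adjusted p = 0.189). Neither gene overlapped between the ages, as 2.76% of genes tested did not with old above and 8.48% with old below, and 0.31% of genes passed.

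Some tests rested on few UMIs. In mast cells Cebpb was 222 and 255 CPM in old replicates 1 and 3, against 466, 864 and 606 CPM in young replicates 2, 3 and 4, without overlap (old below young in 14.8% of genes tested; edgeR adjusted p = 0.545, 0.0% of genes passing), where the old values rest on 13 and 9 UMIs. In T cells Pparg was 6.23, 9.75 and 6.73 CPM in old libraries, against 3.97, 5.49, 2.25 and 0.886 CPM in young libraries, and Cebpa was 4.63, 6.19 and 4.60 CPM in old libraries, against 3.97, 1.83, 0 and 1.77 CPM in young libraries. No young T cell value of these 2 genes rests on more than 6 UMIs, and neither passed (edgeR adjusted p = 0.402 and 0.401). In epithelial cells Agt was 8.33, 7.90 and 12.0 CPM in old libraries, against 8.32, 0.475, 5.14 and 0.953 CPM in young libraries, with overlap (edgeR adjusted p = 0.272). These values rest on 35, 13 and 32 UMIs in old libraries, against 219, 2, 30 and 13 in young libraries. Within cluster 23 Agt was 9.02, 18.1 and 13.5 CPM in old libraries, against 31.6 CPM in young replicate 1. How far the class values reflect the mix of clusters was not tested. None of the genes tested in macrophages, dendritic cells and NK cells had an unadjusted p under 0.05 (6, 6 and 2 genes).

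Over all 26 groups of cells, 157 tests of the 9 genes were made, 2 passed, while the share of all genes passing ran from 0 to 7.17% per group. An unadjusted p under 0.05 was found in 39 of these tests (24.8%), beside 11.5% of the 233358 tests of all genes, and the groups share cells and libraries. Scd1 was lower in old libraries in 18 of 22 groups and lay below young without overlap in 4, beside 6.70% of all gene tests in those groups. Cebpa was higher in 18 of 22, and Acsl1 in 12 of 15. Pparg was higher in 13 of 20, Cebpb in 11 of 26, Zfp423 in 7 of 12 and Agt in 3 of 5.

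**Figure D4:**
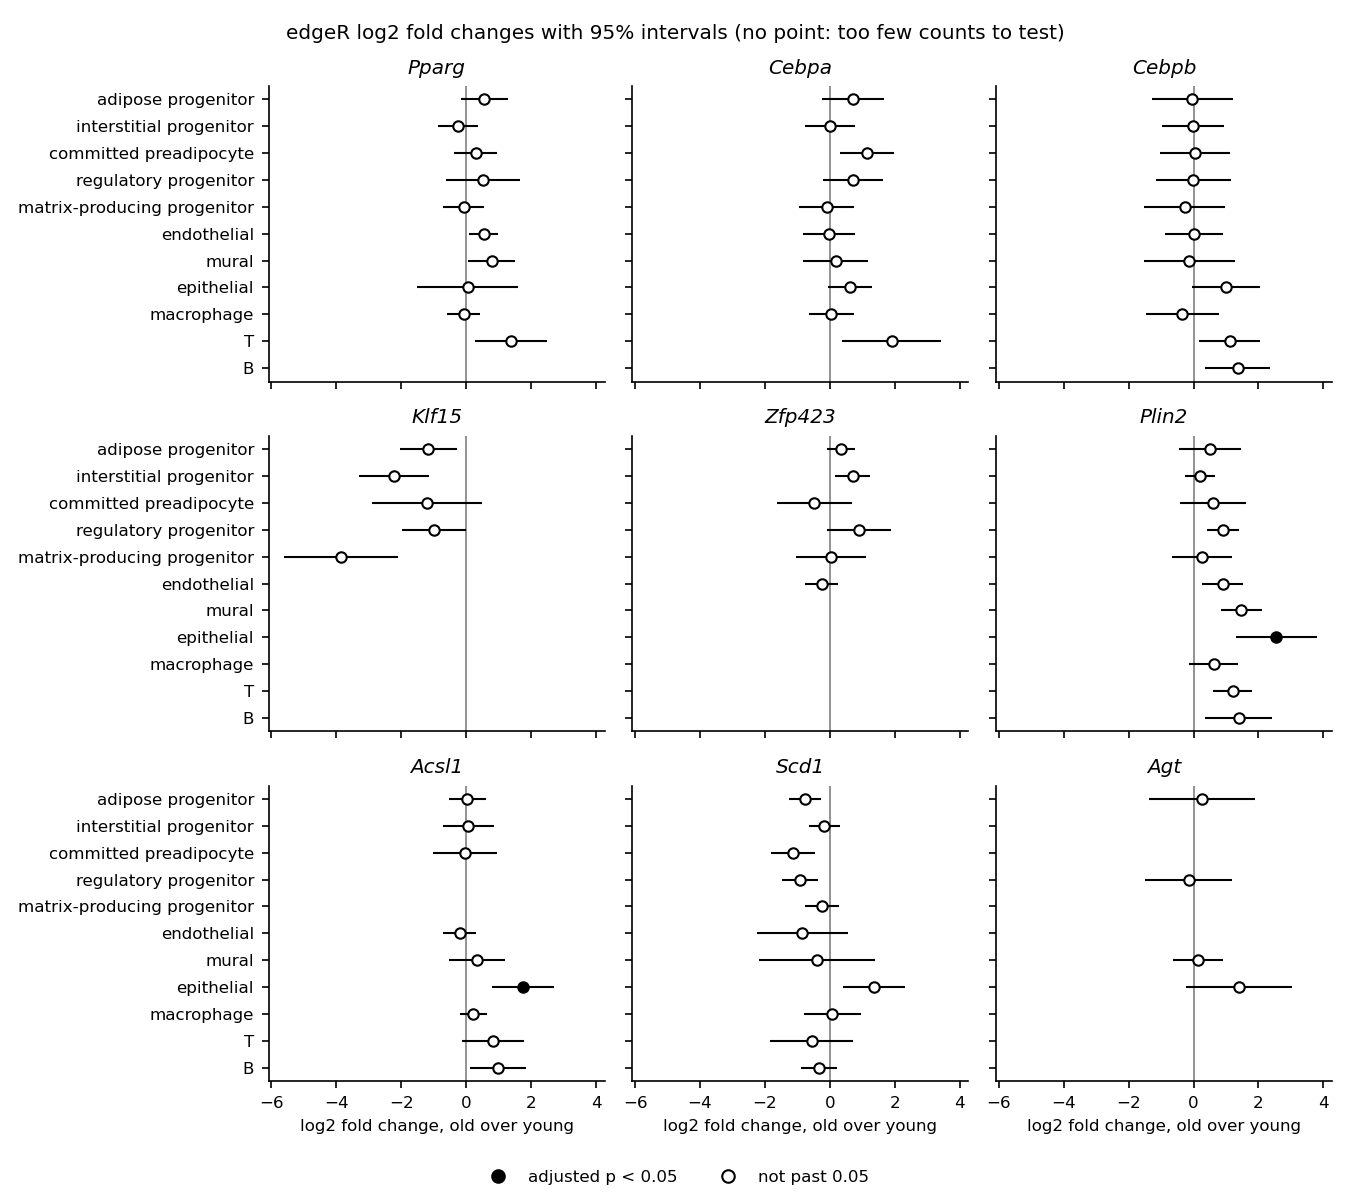
The edgeR log2 fold change (old over young) of each gene in 11 classes with its 95% interval, where filled points passed at an adjusted p under 0.05. The 2 filled points are Plin2 (2.55) and Acsl1 (1.76) in epithelial cells, and every Klf15 point lies below 0.

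**Figure D5:**
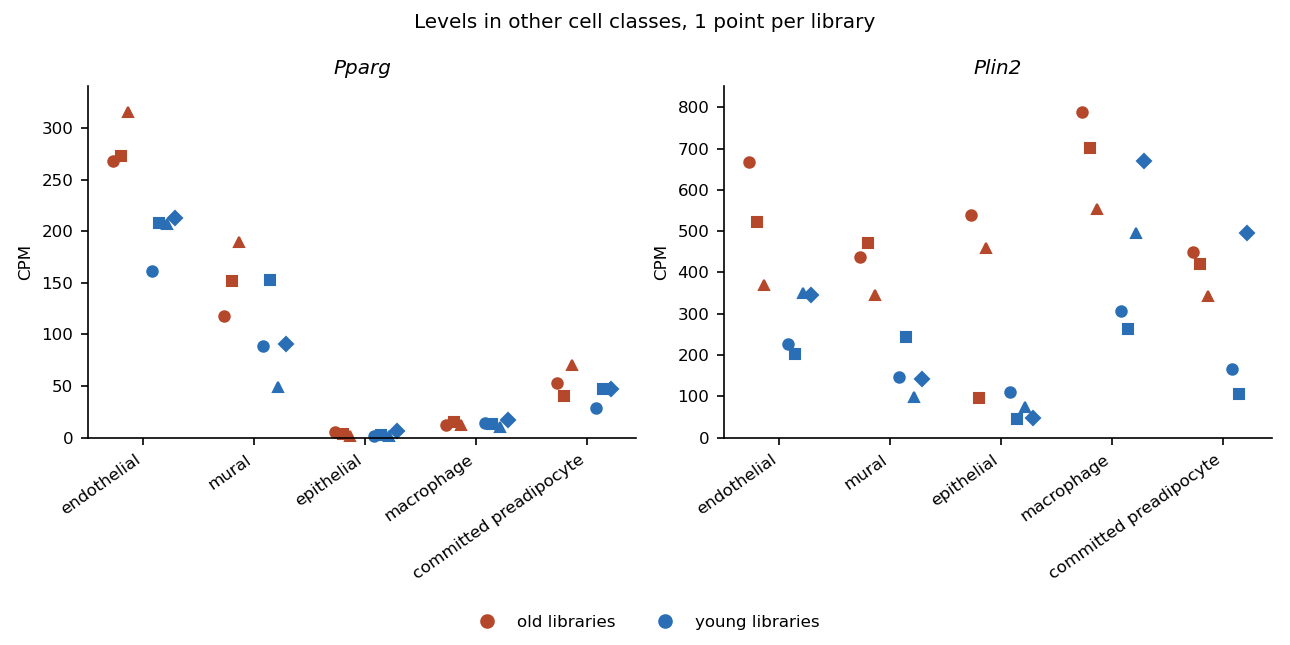
Level of Pparg and Plin2 in CPM in 5 classes, 1 point per library, with old libraries at left of each pair. Endothelial Pparg is at 268 CPM or above in old libraries and at 213 CPM or below in young libraries.

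Of 100 other genes on 10 lists of related pathways, 3 (3%) passed in progenitors, which were Lpin1, Scd2 and Ace, beside 1.86% of all genes. Of 17 other adipogenic transcription factors, 8 were higher and 9 lower in old libraries, none passed, and the median log2 fold change was -0.11, against 0.00 over all genes. The lowest unadjusted p in the list belonged to Klf5, an early adipogenic Krüppel-like factor (3.50 ± 1.34 CPM in old, 6.50 ± 0.943 CPM in young, SD, n = 3 and 4, log2 fold change -0.86), and then to Stat5b (-0.21). Of 13 brakes on adipogenesis, 5 were higher and 8 lower and none passed (median -0.06). Sirt1, the deacetylase that represses PPAR gamma, had 76.3 ± 5.94 CPM in old and 38.3 ± 15.7 CPM in young progenitors (log2 fold change 0.97), and Dlk1, the preadipocyte factor, had 0.603 ± 0.706 CPM in old and 2.65 ± 1.81 CPM in young (-1.95). In the 10 other C/EBP and Krüppel-like factors tested, 7 were higher, 3 lower and none passed (median 0.12), with Klf7 (0.17) and Cebpg (0.22) at the lowest p.

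Among lipid genes, 2 of those 3 passed and both fell. Of 19 tested genes of lipid uptake, storage and lipolysis, 10 were higher and 9 lower (median 0.01), and Lpin1, the phosphatidate phosphatase lipin 1, fell to 19.8 ± 3.18 CPM in old progenitors, against 39.9 ± 6.19 CPM in young ones (log2 fold change -1.01, edgeR adjusted p = 0.0314). Of 13 genes of fatty acid synthesis and desaturation, 6 were higher and 7 lower (median -0.03). Scd2, a desaturase of the same family as Scd1, fell to 50.6 ± 16.0 CPM in old progenitors, against 107.4 ± 9.63 CPM in young ones (log2 fold change -1.09, edgeR adjusted p = 0.0255). Scd1 and Scd2 are similar in sequence, and whether this affected their counts was not tested. Of 4 other acyl-CoA synthetases, 3 were higher, 1 lower and none passed (median 0.28), and Acsl5 and Acsl6 had log2 fold changes of 0.48 and 0.68. Only 3 of 10 mature adipocyte genes had enough counts to test, and none passed, with log2 fold changes of 1.26 for Plin4 and -0.65 for Car3.

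Ace, which encodes the enzyme that cuts angiotensin I to angiotensin II, was the only one of 8 tested renin-angiotensin genes to pass. It fell to 109.8 ± 31.9 CPM in old progenitors, against 230.9 ± 15.2 CPM in young ones (log2 fold change -1.07, edgeR adjusted p = 0.0328), and 4 of the list were higher and 4 lower. Of 12 tested genes of BMP signalling, which acts upstream and downstream of Zfp423, 5 were higher and 7 lower and none passed (median -0.04), with Id1 at 0.86 and Bmp4 at 0.66. Of 9 glucocorticoid-responsive genes, which share an inducer with Klf15, 5 were higher, 4 lower and none passed (median 0.06), with Fkbp5 at 0.96 and Tsc22d3 at 0.59. Of the 12 immediate early genes 11 were higher in old libraries and none passed (median 0.47), with Egr1 at 0.95 and Ier2 at 0.86. At an unadjusted p under 0.05 there were 2400 of the 13970 genes, and DESeq2 called 972 in this comparison.

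Fewer cells of a state and less RNA per cell cannot be told apart within a summed class. The shares of cells with a UMI after thinning ran with the CPM values. In progenitors Klf15 had a UMI in 0.639 to 1.74% of cells in old libraries, against 1.54 to 4.17% in young libraries, with 0 to 0.0191% in old T cells, against 0 to 0.0602% in young T cells. Scd1 had a UMI in 6.08 to 10.6% of old progenitors, against 12.7 to 19.9% of young progenitors, and in T cells in 0.587 to 1.91% in old libraries, against 0.592 to 3.49% in young libraries. Thinning kept 4372 of 4472 old and 7167 of 7469 young progenitors. Without it the shares in progenitors were 3.57 to 6.87% in old libraries, against 13.0 to 20.3% in young libraries for Klf15, and 24.3 to 44.3% in old libraries, against 55.9 to 76.1% in young libraries for Scd1.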

How the data were processed

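Single-cell RNA-seq was measured in 7 libraries. The authors deposited raw UMI counts per gene and barcode, made with Cell Ranger 4.0.0 on mm10 per the submitters' processing notes; the annotation release, strand setting and cell-calling settings are not given in the sources used here. Cells with at least 500 UMIs, 300 genes and at most 15% mitochondrial UMIs were kept, and predicted doublets were removed. Clustering (scanpy 1.11.5, leidenalg 0.10.2; 2000 variable genes without the 9 genes, 30 components, resolution 1) was named from marker lists. For each class and library the UMI counts of its cells were added up (at least 20 cells, at least 2 libraries per age), and old was compared with young by edgeR 4.0.16 quasi-likelihood tests (filterByExpr, TMM, Benjamini-Hochberg, threshold 0.05), with no block for replicate number. Class by age terms had the library as a block and are given for genes tested in both classes. DESeq2 1.42.0 was an alternative. The fits were tested on simulated data. CPM are scaled to 1e6 summed UMIs. Intervals are 95% and those on counts cover counting error only. Gene positions come from GENCODE M21 (mm10) and promoters from RefSeq GRCm38.p6.

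The 9 genes, the pathway lists and the markers were chosen with earlier results of these data known. All 9 genes were tested in every class in which they passed the expression filter; the values by age given outside progenitors were chosen after they were seen. From each list the text names members that passed over all genes tested in progenitors (at most 4) or else the 2 with the lowest p, and for each of the 9 genes the 3 most alike genes over classes (at least 20 CPM in some class, Gm- and Rik-named models left out). Libraries of the same age differed from one another by more than sampling noise. Alternatives were other normalisation, no expression filter, the replicate block, leaving out each library, kept doublets, a stricter cell filter (500 genes, 5% mitochondrial UMIs), resolution 2, the 9 genes among the variable genes, thinning, and, added after seeing the data, leaving out clusters of low UMI content and testing single endothelial clusters.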

Additional observations from a re-analysis of the deposited data

Results flagged for a closer look

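Within the 4 young libraries, 76 combinations of gene and class with at least 30 counts were checked for 1 library far from the other 3, and 6 were found, where chance gives about 1 in 20. Agt in progenitors was 4.12 CPM in young replicate 1, against 0.508 to 1.12 CPM in the other young libraries. Cebpb in B cells was 33.8 CPM in young replicate 1, against 219 to 247 CPM. Pparg in endothelial cells was 161 CPM in young replicate 1, against 207 to 213 CPM. Klf15 in matrix-producing progenitors was 25.8 CPM in young replicate 1, against 9.80 to 12.0 CPM. Scd1 in mural cells was 204 CPM in young replicate 2 (43 cells), against 13.7 to 31.0 CPM. Zfp423 in matrix-producing progenitors was 3.64 CPM in young replicate 4, against 8.55 to 8.83 CPM.

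Among genes tested in both classes, the age differences that differed by edgeR's test of the class by age term were those of Cebpa between committed and interstitial cells (1.06 on the log2 scale) and of Scd1 between the same subtypes (-0.90).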

How the results depend on the processing

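The direction of the log2 fold change in progenitors turned in 4 genes, none of which passed. Leaving out 1 library gave -0.033 to 0.98 for Cebpa, -0.75 to 0.30 for Cebpb, -0.20 to 1.18 for Agt and -0.068 to 0.17 for Acsl1. The value of -0.033 for Cebpa came without old replicate 3. Cebpb was 0.06 and 0.24 without young replicate 2 and 4, 0.14 and 0.30 without old replicate 1 and 2, and 0.28 with the replicate block. Agt was -0.05 and -0.04 without young replicate 2 and 4 and -0.20 without old replicate 2, and Acsl1 was -0.06 and -0.068 without young replicate 1 and 2 and -0.04 without old replicate 1. The cause was not tested. Of 423 alternative values for fold changes, 373 kept their direction and their side of the threshold, 21 lost the call and 17 gained one. Under DESeq2, 1 gene passed in progenitors (Scd1), mural cells, interstitial and matrix-producing progenitors, cluster 12 and sub-cluster 5. With no expression filter, 1 passed in mast and mural cells, interstitial, regulatory and matrix-producing progenitors and sub-clusters 5, 10 and 11, and 2 passed in T cells, B cells and committed cells. At resolution 2, 2 passed in committed cells, and under the stricter cell filter 0 passed in epithelial cells (adjusted p of 0.113 for Plin2 and 0.139 for Acsl1). Leaving out 1 library gave 0 to 4 passing genes in epithelial cells, 0 to 1 in B, T and mural cells, cluster 8, committed and matrix-producing progenitors, sub-cluster 5 and the progenitor by macrophage age test, and 0 to 2 in the committed by age test. Same-numbered old and young libraries correlated at -0.078, 0.080 and 0.053, within the range of differently numbered pairs (-0.236 to 0.194). With so few libraries these values cannot decide whether the numbers pair them. With the replicate block 1 gene passed in B cells, committed cells and cluster 27, and 87 of all genes passed in progenitors, against 260 without it, 972 by DESeq2 and 29 to 451 when 1 library was left out (29 without old replicate 1, 45 without old replicate 2, 96 without young replicate 4, 128 without young replicate 3 and 451 without young replicate 1). Without thinning, the median share of progenitors with a UMI was 28.6% for Pparg, 36.9% for Cebpa, 94.0% for Cebpb, 13.0% for Klf15, 14.1% for Zfp423, 74.8% for Plin2, 0.608% for Agt, 7.14% for Acsl1 and 55.9% for Scd1. Low counts limit Klf15, Zfp423, Acsl1 and Agt outside progenitors, and 3 old against 4 young libraries limit all tests.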
